A study of Mus musculus with 12 samples.

Results

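The glutathione and peroxide detoxification enzymes were taken as a gene group from the annotation of the array, by a rule on the symbol. The rule itself used no intensity, although the group was chosen with earlier results of these data known. They comprised the glutathione S-transferases, the microsomal glutathione S-transferases, the glutathione peroxidases, the peroxiredoxins, the thioredoxins with their reductases, the glutaredoxins, the superoxide dismutases, catalase and the enzymes that make or reduce glutathione. The rule found 49 genes on 62 probes, of 16675 gene symbols on the array, and 11 of the 49 genes had more than 1 probe. Each gene was represented by the probe with the highest mean log2 intensity over all arrays, and its other probes were used as a check. A further 8 genes whose symbols match the rule, Gpx4, Gpx8, Gsta1, Gsta2, Gstp2, Gstp3, Prdx6b and Sod1, have no probe under that symbol in the annotation and were not analysed here.

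The arrays came from PPRE transgenic mice, which carry a firefly luciferase reporter behind tandem peroxisome proliferator response elements and the tk promoter, so that mice of every group had the transgene. The mice were male FVB heterozygotes aged 6 to 8 weeks. Chitosan mice had been injected under the skin with 0.2 g/kg of chitosan oligosaccharide lactate and mock mice with saline, and the organs were collected on day 3. By the methods the chitosan was dissolved in water, so the vehicle differed from that of the mock mice. The 4 groups, chitosan stomach, mock stomach, chitosan brain and mock brain, had 3 arrays each, and by the methods the replicates of a group came from 3 independent mice. The sources do not say whether a stomach array and a brain array share a mouse.

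Glutathione is a small thiol that cells make from glutamate, cysteine and glycine. Transferases attach it to reactive compounds such as lipid aldehydes, glutathione peroxidases spend it to reduce hydrogen peroxide and lipid peroxides, and glutathione reductase restores it with NADPH. Superoxide dismutases produce hydrogen peroxide from superoxide, and catalase, the peroxiredoxins and the thioredoxin system remove it. The stomach lining meets reactive compounds from food, while the brain combines a high oxygen use with lipids that are easily oxidized.

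The deposited intensities had medians of 47 to 47.8 on the 12 arrays and the same highest value on each, and 9.52% to 10.6% of the probes of an array lay above 2 times its lowest intensity. Here a gene was counted as above background in an organ when its mean intensity in either group of that organ exceeded 68.7, which is 2 times the lowest intensity of the data. Arrays of 1 group correlated at 0.796 to 0.951 on the log2 scale, and the arrays that resembled their own group least were chitosan stomach array 3 (mean r = 0.822) and chitosan brain array 3 (mean r = 0.838). With 3 arrays a group, the smallest two-sided p that an exact permutation test allows is 0.1. Different probes bind with different strength, so intensities were compared between arrays and not between genes.

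Promoter sequences are shown for 4 genes of the group. Gsto1, Gpx2 and Gsta3 differed between stomach and brain in both treatments, and Prdx1 varied widely among the arrays of a group and, like Gsta3, holds the letters of an antioxidant response element. Each sequence covers 250 bases before and 50 bases after the start of the gene, 5′ to 3′ on the strand of the gene, from RefSeq on build GRCm38.p6, and capitals mark the match to TGACNNNGC on either strand.
Gsto1, chr19:47854723-47855022, plus strand: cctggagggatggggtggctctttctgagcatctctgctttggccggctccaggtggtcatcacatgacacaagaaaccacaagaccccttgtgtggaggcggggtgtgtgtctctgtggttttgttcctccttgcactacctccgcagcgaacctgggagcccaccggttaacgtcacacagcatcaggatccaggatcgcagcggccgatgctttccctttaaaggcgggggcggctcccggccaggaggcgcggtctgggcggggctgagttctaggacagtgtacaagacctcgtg
Gpx2, chr12:76795505-76795804, minus strand: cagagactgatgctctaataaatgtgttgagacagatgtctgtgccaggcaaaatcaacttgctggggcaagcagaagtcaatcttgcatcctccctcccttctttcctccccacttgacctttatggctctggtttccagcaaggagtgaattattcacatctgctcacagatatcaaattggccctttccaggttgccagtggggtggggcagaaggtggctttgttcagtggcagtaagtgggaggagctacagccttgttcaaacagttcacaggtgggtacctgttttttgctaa
Gsta3, chr1:21240335-21240634, plus strand: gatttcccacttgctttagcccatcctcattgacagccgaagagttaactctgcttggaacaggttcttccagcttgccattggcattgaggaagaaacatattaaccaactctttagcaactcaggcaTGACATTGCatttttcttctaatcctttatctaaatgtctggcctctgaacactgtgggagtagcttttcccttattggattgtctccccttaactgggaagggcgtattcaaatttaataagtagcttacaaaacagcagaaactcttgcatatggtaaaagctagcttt
Prdx1, chr4:116685349-116685648, plus strand: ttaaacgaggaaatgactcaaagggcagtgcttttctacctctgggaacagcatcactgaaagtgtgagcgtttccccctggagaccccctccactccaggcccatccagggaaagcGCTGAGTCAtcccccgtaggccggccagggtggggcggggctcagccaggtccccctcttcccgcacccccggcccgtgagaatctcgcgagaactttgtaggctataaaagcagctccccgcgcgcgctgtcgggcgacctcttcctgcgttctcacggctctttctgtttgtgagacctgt

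The antioxidant response element is the sequence that the transcription factor NRF2 recognizes in many genes of this kind. The letters TGACNNNGC start 121 bases before the gene in Gsta3 and 133 bases before it in Prdx1, and neither the Gsto1 nor the Gpx2 window holds them. Over the group, they were found in 7 of 58 promoters of 43 member genes (12.1%), those of Gclm, Gsta3, Gstm5, Gstm7, Mgst1, Prdx1 and Txnrd1, against 12.4% of 32851 promoters of all genes. The core of a peroxisome proliferator response element, searched as the hexamer AGGNCA repeated directly with 1 base between, was in 0 of the 58 windows, against 0.381% of all promoters. The TATA box letters TATAAA were in 7 of the 58, against 13.6% of all promoters. Both strands were searched, and a match of letters is a description of the window only.

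Of the 49 genes, 19 were above background in the stomach and 16 in the brain, against 12.3% and 11.8% of all probes in these organs. Of them, 14 were above background in both organs, 5 in the stomach only (Gpx2, Gstm2, Gstt3, Mgst2 and Sod2) and 2 in the brain only (Gpx5 and Prdx2). The other 28 genes, Cat, Gclc, Gclm, Gsr, Txn1 and Sod3 among them, were at background in both organs, with single values of 36.7 to 99.3. The heat map of log2 intensities shows this split, with most rows of 1 dark shade. Each of the classes alpha, kappa, mu, omega, pi and theta of the transferases had at least 1 gene above background in the stomach, while the zeta gene Gstz1 had none in either organ.

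**Figure D1:**
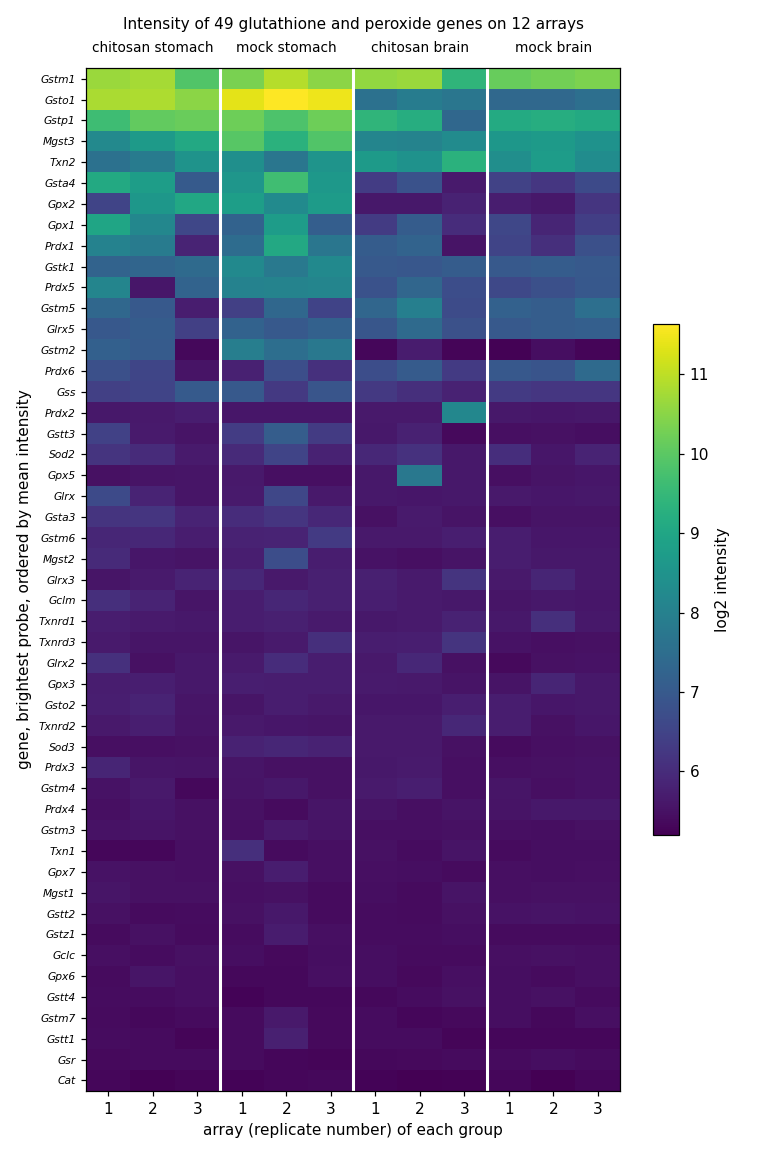
Log2 intensity (colour) of the 49 genes, 1 row each by the brightest probe, on the 12 arrays: chitosan stomach, mock stomach, chitosan brain and mock brain, arrays 1 to 3 of each. Of the rows, 28 stay at background on the group means of both organs, and the Gsto1 row is bright in the stomach columns and dimmer in the brain columns.

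The clearest difference lay between the organs. In mock mice, limma on all 12 arrays called 8 of the 49 genes higher in the stomach than in the brain and 0 lower at an adjusted p under 0.05, where 3.03% of all probes were called higher and 2.63% lower. In chitosan mice 3 genes were called higher and 0 lower, where 1.67% and 2.36% of all probes were called. These shares include many dim probes, while more of the group was above background. Fitted alone, the 14961 probes brighter than the median gave 928 higher and 907 lower in mock mice, and 621 and 805 in chitosan mice. The 3, Gsto1, Gpx2 and Gsta3, were among the 8. Both organ comparisons rest on bulk tissue, in which fewer cells of a type and less RNA per cell cannot be told apart. The organs were as labelled, since the summed intensities of 24 neuron markers were 1332 to 2220 on the stomach arrays and 13159 to 24215 on the brain arrays.

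Gsto1, an omega class transferase that reduces dehydroascorbate and removes glutathione from proteins, showed the largest organ difference of the group. In mock mice its intensities were 2669, 3178 and 2815 in the stomach, against 165, 166 and 188 in the brain. In chitosan mice they were 1817, 1835 and 1469.5 in the stomach, against 194, 238 and 212 in the brain. Every stomach array thus lay far above every brain array. The log2 difference of stomach over brain was 4.06 (SE 0.26, adjusted p = 5.55e-06) in mock mice, or 16.7-fold, and 2.99 (SE 0.26, adjusted p = 3.13e-05) in chitosan mice, or 7.94-fold.

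Gpx2, the glutathione peroxidase of the gastrointestinal epithelium, gave 445, 312 and 428 in mock stomach, against 52.4, 48.8 and 72.4 in mock brain, where its mean was under the background limit. In chitosan mice the values were 91.8, 386 and 530.2 in the stomach, against 48.6, 48.7 and 56.5 in the brain. The organs did not overlap in either treatment, although chitosan stomach array 1 lay far below the other 5 stomach arrays. The log2 differences were 2.77 (SE 0.52, adjusted p = 0.0074) in mock mice and 2.38 (SE 0.52, adjusted p = 0.0239) in chitosan mice, and the call in chitosan mice was lost without chitosan stomach array 2 or 3 or chitosan brain array 1 or 2 (adjusted p of 0.0516 to 0.111).

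Gsta4, an alpha class transferase that conjugates lipid aldehydes, gave 382, 811 and 394 in mock stomach and 88.9, 74.8 and 99.8 in mock brain, with a log2 difference of 2.51 (SE 0.55, adjusted p = 0.0181). Its 2 organs were also apart in chitosan mice, with 551, 437 and 129 in the stomach and 81.5, 114 and 50.6 in the brain, but the difference of 2.02 was not called (adjusted p = 0.0747). Gsta3, of the same class and named here after its values were seen, had 65.1, 73.2 and 60.6 in mock stomach and 44.2, 46.0 and 46.6 in mock brain. In chitosan mice it had 72.1, 72.9 and 57.7 in the stomach and 44.9, 50.6 and 46.8 in the brain. The organs did not overlap, and all 4 group means lay under the background limit of 68.7. The log2 differences of Gsta3 were 0.54 (SE 0.10, adjusted p = 0.00728) in mock mice and 0.50 (SE 0.10, adjusted p = 0.0133) in chitosan mice, the second of which was lost without chitosan stomach array 1 or 2 or chitosan brain array 1 (adjusted p of 0.0573 to 0.0759).

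The mu class gene Gstm2 gave 247, 183 and 218 in mock stomach, against 37.7, 42.9 and 38.7 in mock brain, a log2 difference of 2.43 (SE 0.38, adjusted p = 0.00214). In chitosan mice it gave 145, 132 and 40.4 in the stomach, against 39.5, 51.8 and 38.7 in the brain, and chitosan stomach array 3 fell within the range of the brain arrays. Gstm1 and Gstm5, of the same class, were not called in mock mice, with organ differences of 0.34 (SE 0.34, adjusted p = 0.638) for Gstm1 and -0.54 (SE 0.46, adjusted p = 0.578) for Gstm5. Gstm5 gave 85.5, 162 and 89.7 in mock stomach and 146, 137 and 188 in mock brain, which overlap.

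Gstk1, the kappa class transferase of mitochondria and peroxisomes, gave 302, 222 and 305 in mock stomach and 128, 134 and 128 in mock brain, with a log2 difference of 1.07 (SE 0.25, adjusted p = 0.0265). Gstt3, a theta class transferase, gave 81.5, 137 and 79.1 in mock stomach and 44.2, 45.0 and 43.0 in mock brain, with a log2 difference of 1.12 (SE 0.25, adjusted p = 0.0194). For both genes the organs of mock mice did not overlap, and neither was called in chitosan mice (differences of 0.33 for Gstk1 and 0.30 for Gstt3). In chitosan mice the organs did not overlap for Gstk1 and overlapped for Gstt3. The mock calls of Gsta4, Gstk1 and Gstt3 were each lost without any 1 of the 3 mock brain arrays (adjusted p of 0.0528 to 0.101), which leaves 5 genes called. They were also lost without mock stomach array 2 (Gsta4 at 0.0736 and Gstt3 at 0.0638) or, for Gstk1, without mock stomach array 1 or 3 or chitosan brain array 1 (0.0584 to 0.102). With the dimmest probe of each gene, the organ difference in mock mice was not called for Gstk1 (limma adjusted p = 0.127) or Gstm2 (0.0912).

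Sod3, the extracellular superoxide dismutase, was the other gene called in mock mice, at 56.5, 59.1 and 56.1 in the stomach and 42.0, 44.0 and 45.0 in the brain, a log2 difference of 0.39 (SE 0.05, adjusted p = 0.000531). All of its values on the 12 arrays lay under the background limit. Among genes with a higher mean in the brain of mock mice, Prdx6, a peroxiredoxin that draws on glutathione, had the widest gap, with 55.2, 108 and 68.4 in mock stomach and 126, 117 and 170.3 in mock brain. The Prdx6 organs did not overlap, but the log2 difference was -0.87 (SE 0.35, adjusted p = 0.218) and not called. Prdx5 and Prdx1, which reduce peroxides in mitochondria and in the cytosol, had log2 differences of 1.31 (adjusted p = 0.197) and 1.64 (adjusted p = 0.211) by limma, where the organs did not overlap and neither gene was called.

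**Figure D2:**
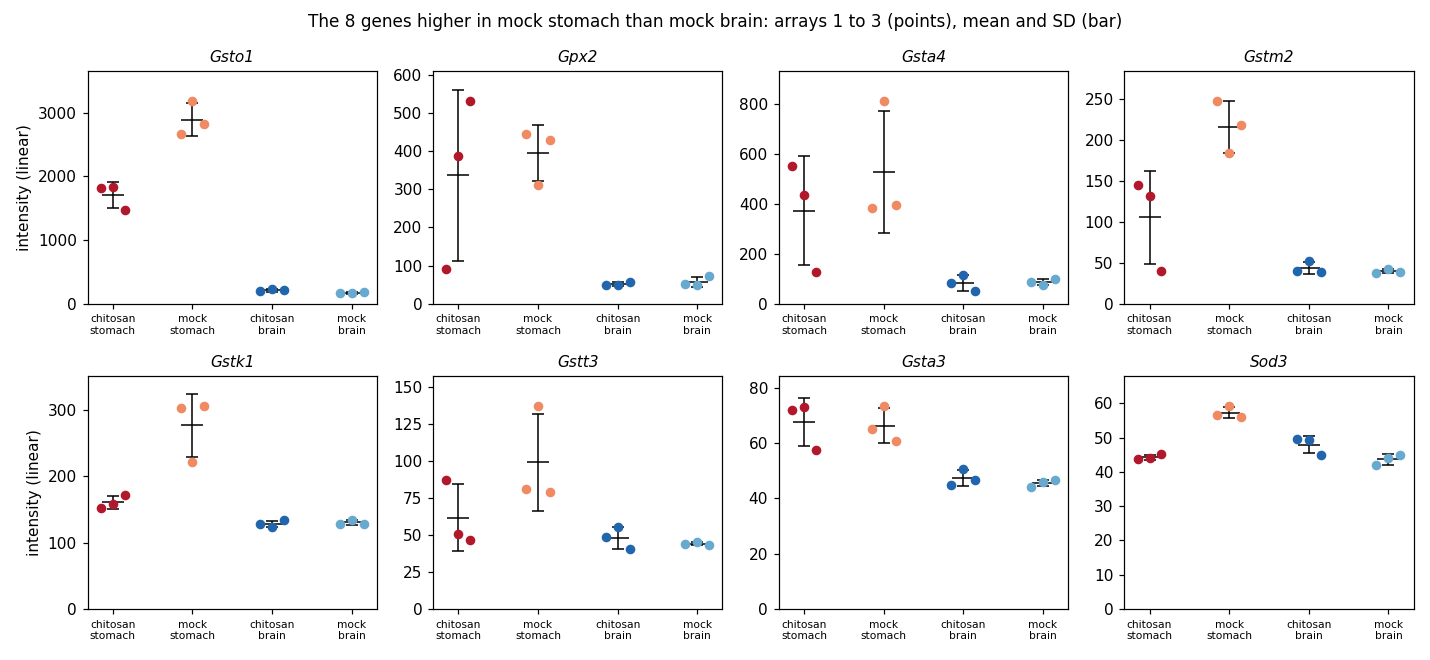
Linear intensity of the 8 genes called higher in mock stomach than in mock brain, for chitosan stomach, mock stomach, chitosan brain and mock brain. Points are arrays 1 to 3 from left to right and bars are the mean and SD of 3 arrays. Gsto1, Gpx2, Gsta4, Gstk1 and Gsta3 keep every stomach array above every brain array, while Sod3 spans 42.0 to 59.1 over all 12 arrays.

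Chitosan was next compared with mock within the stomach, the organ in which more of the group was above background. By limma on the 6 stomach arrays, 0 of the 49 genes were called, as were 0% of all probes. At an unadjusted p under 0.05 there was 1 gene higher (Gstt4) and 2 lower (Gsto1 and Sod3) in chitosan stomach, where 2.03% of all probes were higher and 3.22% lower at that level. In the model of all 12 arrays Sod3 was called lower and 0 genes higher, where 0.291% of all probes were called lower and 0.0267% higher. At the methods' 2-fold limit, taken here on the mean log2 scale without a test, 0 genes were higher and 3 lower (Gstm2, Prdx5 and Mgst3). At this limit 0.127% of all probes were higher and 0.394% lower, and 1.03% and 3.21% of the probes above background. The linear means of Prdx5, 160 in chitosan stomach and 272 in mock stomach, were less than 2-fold apart.

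Over all 49 genes, 16 had a higher and 33 a lower mean log2 intensity in chitosan stomach, against 16965 higher and 12957 lower of all 29922 probes, with a median log2 difference of -0.07 for the genes and 0.01 for the probes. Of the 19 genes above background in the stomach, Gstt3, Mgst2 and Sod2 passed the limit through the mock group alone, which fixes the sign of their difference, so a set was also taken by the mean log2 intensity over all 6 stomach arrays, a choice made after the values were seen. In that set of 17 genes, 2 (Gpx1 and Prdx6) were higher and 15 lower in chitosan stomach, with a median of -0.55, against 1470 higher and 1456 lower of 2926 probes and a median of 0.00. Every chitosan array lay below every mock array for 5 genes (Gstk1, Gstm2, Gsto1, Mgst3 and Sod3) and above every mock array for 2 (Gstt4 and Prdx2), where 5.37% and 6.86% of all probes had no overlap in these directions.

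Markers of gastric cell types differed between the same arrays. The summed intensity of 9 chief cell markers was 3759 to 6971 on the chitosan stomach arrays, against 21700 to 25082 on the mock stomach arrays, and 4 of the 9 (Clps, Pgc, Gif and Chia) were above background. Clps held most of this sum, with means of 4331 in chitosan stomach and 18941 in mock stomach. The means of Pgc, Gif and Chia were 243, 247 and 253 in chitosan stomach and 2300, 1121 and 1135 in mock stomach. The sum of 24 gastric mucous cell markers, 9 of them above background, was 1870 to 4367 in chitosan stomach, against 7153 to 18099 in mock stomach. The 16 parietal cell markers, 9 of them above background, summed to 1595 to 2063 in chitosan stomach and 2729 to 3437 in mock stomach. In the 12-array model 4 chief, 3 mucous and 3 parietal cell markers were called lower in chitosan stomach. Smooth muscle markers lay the other way, with 21 genes that summed to 23611 to 25839 in chitosan stomach and 13864 to 16113 in mock stomach, and 1 of them was called higher. Forestomach markers overlapped, with 31 genes at 41591 to 48990 in chitosan stomach and 40502 to 49112 in mock stomach. The sums of 19 hepatocyte markers (957 to 992 in chitosan stomach and 1596 to 2028 in mock stomach), 14 adipocyte markers (1006 to 1355 and 1371 to 2241) and 22 leukocyte markers (1067 to 1107 and 1146 to 1456) also did not overlap, with 2, 3 and 2 of their genes called lower in chitosan stomach. The 16 pancreatic markers were all at background. The part of the cell makeup in the levels of the glutathione genes was not tested.

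**Figure D3:**
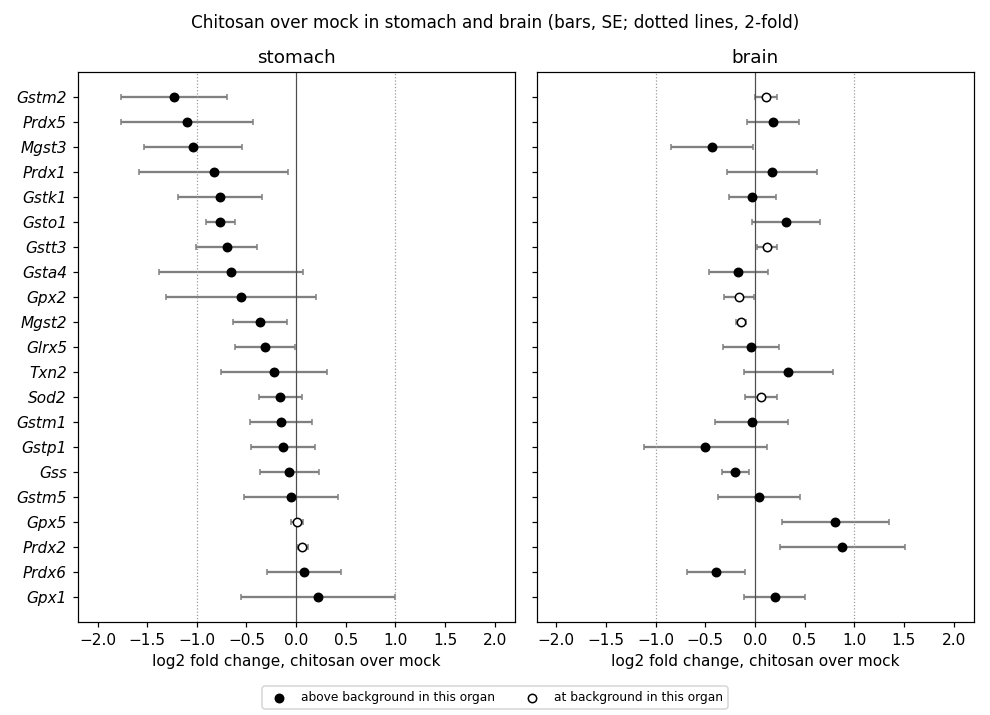
Log2 fold change of chitosan over mock (x axis, bars are the SE) in the stomach and in the brain for the 21 genes above background in at least 1 organ. Filled points are above background in that organ and open points are not. The filled stomach points of Gstt3, Mgst2 and Sod2 passed through the mock mean alone and the filled brain points of Gpx5 and Prdx2 through the chitosan mean alone, so their side of 0 was fixed by the filter.

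Gsto1 had the smallest adjusted p of the genes above background in this comparison. Its chitosan stomach arrays gave 1817, 1835 and 1469.5, all below the mock stomach arrays with 2669, 3178 and 2815. The means were 1707 ± 206 in chitosan stomach and 2888 ± 262 in mock stomach (SD, n = 3 each), and the log2 difference was -0.76 (SE 0.15, adjusted p = 0.384) by limma, 1.7-fold lower. Gstk1 gave 152, 158 and 172 in chitosan stomach, against 302, 222 and 305 in mock stomach, a difference of -0.77 (SE 0.43, adjusted p = 0.853) without overlap. The second Gstk1 probe gave 74.6, 53.7 and 47.5 in chitosan stomach and 69.7, 114 and 59.1 in mock stomach, which overlap, with a difference of -0.43. Gstt3 gave 87.6, 50.8 and 46.4 in chitosan stomach, against 81.5, 137 and 79.1 in mock stomach, where chitosan array 1 lay within the mock range, and its difference was -0.70 (SE 0.31, adjusted p = 0.853).

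Sod3 gave 43.8, 43.9 and 45.1 in chitosan stomach, against 56.5, 59.1 and 56.1 in mock stomach. The groups were tight and apart, at 44.2 ± 0.726 in chitosan stomach and 57.2 ± 1.62 in mock stomach (SD, n = 3 each), although both are under the background limit of 68.7. The log2 difference was -0.37 (SE 0.05, adjusted p = 0.143) on the 6 stomach arrays, and limma on all 12 arrays gave an adjusted p of 0.00877. Sod2, the mitochondrial superoxide dismutase, gave 72.1, 63.8 and 50.2 in chitosan stomach and 62.2, 92.3 and 56.1 in mock stomach, which overlap (log2 difference -0.16, SE 0.21).

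Each of the 3 genes at 2-fold dropped below it when 1 array was left out. Gstm2 gave 145, 132 and 40.4 in chitosan stomach, against 247, 183 and 218 in mock stomach, a difference of -1.23 (SE 0.53, adjusted p = 0.853), which was -0.64 without chitosan stomach array 3. The second Gstm2 probe read 77.8, 74.5 and 86.1 in chitosan stomach and 60.2, 72.8 and 65.8 in mock stomach, with a difference of 0.26. The 2 probes of this gene thus differed in sign.

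Prdx5 gave 278, 47.9 and 152 in chitosan stomach, against 267, 268 and 280.2 in mock stomach, and only array 2 was near background. Its difference was -1.10 (SE 0.66, adjusted p = 0.853), and -0.40 without chitosan stomach array 2. A second Prdx5 probe gave 254, 193 and 119 in chitosan stomach and 134, 309 and 127 in mock stomach, which overlap, with a difference of 0.05.

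Mgst3, a membrane-bound transferase with peroxidase activity, gave 298, 419 and 545 in chitosan stomach, against 990.0, 630.4 and 941 in mock stomach, without overlap, and a difference of -1.04 (SE 0.49, adjusted p = 0.853), which was -0.81 without chitosan stomach array 1. Its second probe gave 427, 332 and 124 in chitosan stomach and 278, 679 and 305 in mock stomach, with a difference of -0.57, and the third probe was at background (0.03). On the second probe mock stomach array 2 was the highest of its group, whereas on the first it was the lowest. With the mean of all probes of a gene, or with its dimmest probe, 0 of the 49 genes reached 2-fold in the stomach.

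**Figure D4:**
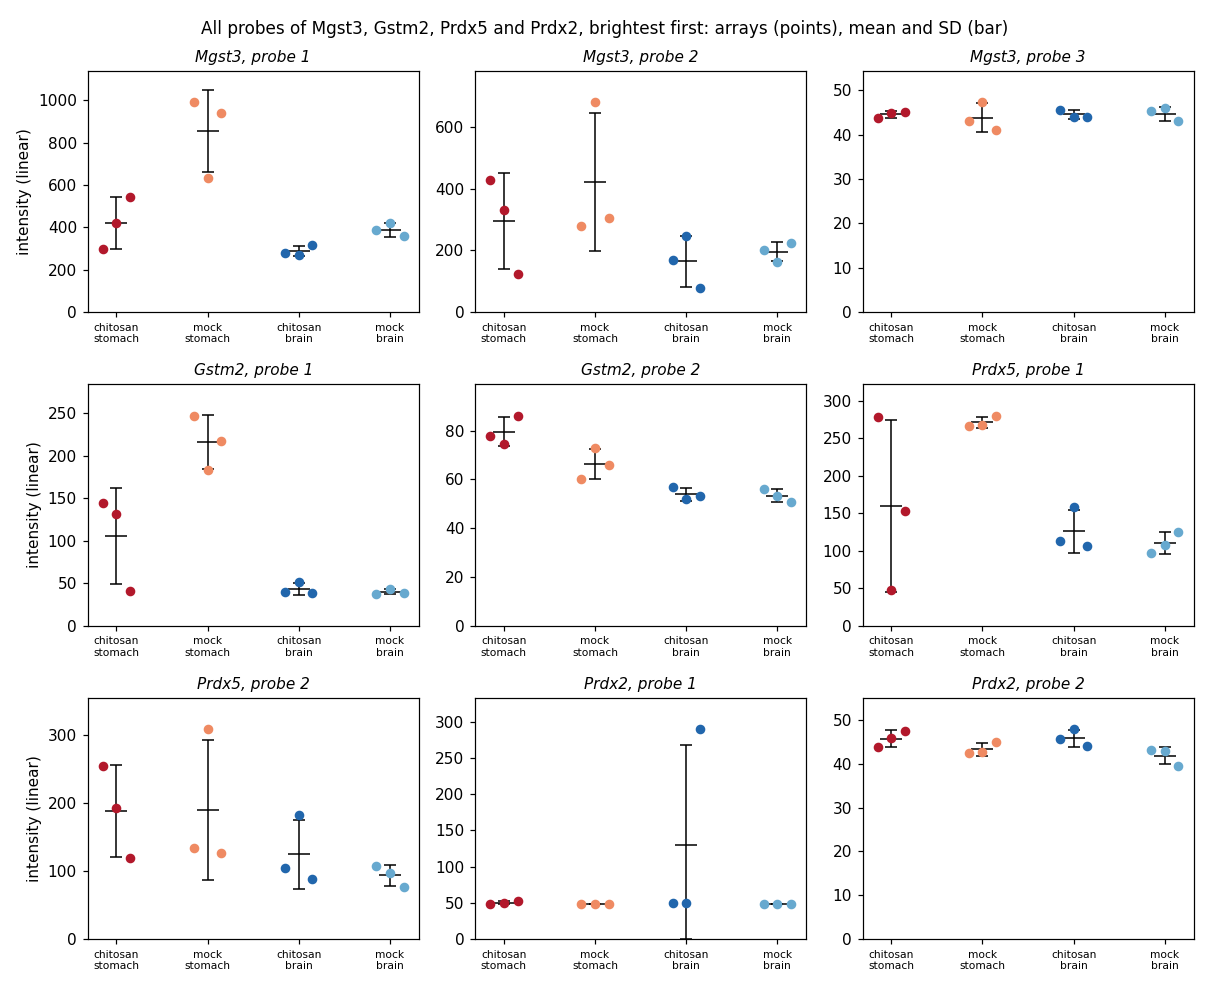
Linear intensity on every probe of Mgst3, Gstm2, Prdx5 and Prdx2, brightest probe first, in chitosan stomach, mock stomach, chitosan brain and mock brain. Points are arrays 1 to 3 from left to right and bars are the mean and SD of 3 arrays, drawn no lower than 0. The second probes of Gstm2 and Prdx5 do not show the lower chitosan stomach mean of the first, and only array 3 of chitosan brain is bright on the first Prdx2 probe.

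The other transferases and peroxidases above background in the stomach had overlapping groups. Gstm1 gave 1616, 1728 and 943 in chitosan stomach and 1288, 1935 and 1463 in mock stomach (log2 difference -0.16, SE 0.31). Gstp1, the pi class transferase, gave 791, 1084 and 1139 in chitosan stomach and 1188, 909 and 1188 in mock stomach (log2 difference -0.13, SE 0.33). Gpx1, the cytosolic selenium peroxidase, gave 508, 289.5 and 94.8 in chitosan stomach and 149.5, 429 and 139 in mock stomach (log2 difference 0.22, SE 0.78). In chitosan stomach the highest array was up to 5.80 times the lowest (Prdx5), and Gpx1 had a similar span. Gpx2, Gsta4 and Prdx1, which also overlapped, had differences of -0.55 (SE 0.75), -0.66 (SE 0.72) and -0.83 (SE 0.75).

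Much of this spread was shared between genes. In 10 of the 19 genes (Gpx1, Gsta4, Gstm1, Gstm5, Gsto1, Gstt3, Mgst2, Prdx1, Prdx6 and Sod2) chitosan array 3 was the lowest chitosan array and mock array 2 the highest mock array of the stomach. In 6 others (Gpx2, Gss, Gstk1, Gstp1, Mgst3 and Txn2) chitosan array 3 was the highest of its group and mock array 2 the lowest. This order of arrays, chosen after the values were seen, was common on the arrays, where 34.7% of the 3677 stomach probes above background had the first pattern and 35.1% the second. Prdx1 shows it in the raw values, with 264, 236 and 57.7 in chitosan stomach and 179, 541 and 209.9 in mock stomach. Txn2, the mitochondrial thioredoxin, shows the reverse, with 193, 236 and 363 in chitosan stomach and 336, 211 and 369.5 in mock stomach.

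The same 2 arrays stood at the ends of a technical measure, as the number of distinct intensities was 268 on chitosan stomach array 3 and 884 on mock stomach array 2, against 446 to 651 on the other 4 stomach arrays. Its part in the spread was not tested. The highest array was a median of 1.88 times the lowest in chitosan stomach and 1.65 times in mock stomach over the 19 genes, against 1.70 and 1.42 over the probes above background.

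**Figure D5:**
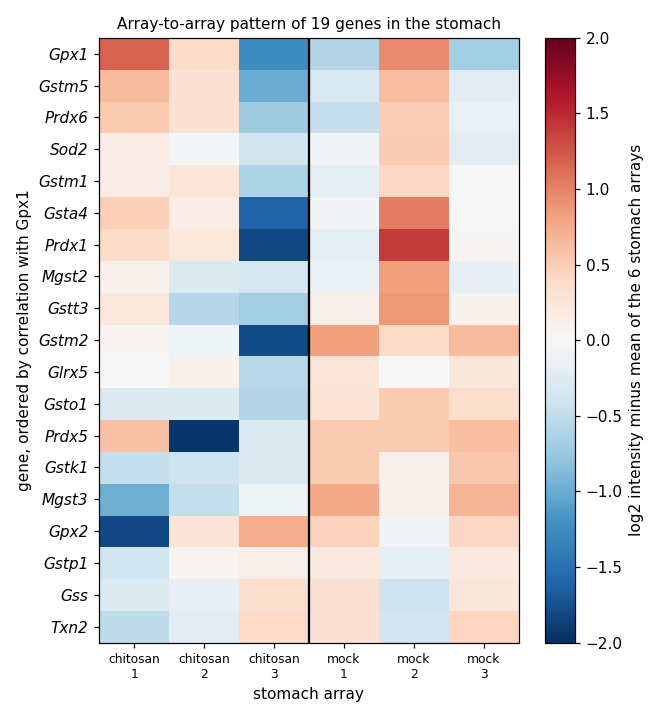
Log2 intensity minus the mean of the 6 stomach arrays (colour) for the 19 genes above background in the stomach, chitosan arrays 1 to 3 and then mock arrays 1 to 3, ordered by likeness to Gpx1. Upper rows are blue on chitosan array 3 and red on mock array 2, and the lowest rows show the reverse.

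In the brain, chitosan over mock gave 0 called genes by limma, as it called 0% of all probes. This share rested on chitosan brain array 3, without which 216 probes were called higher and 5 lower, with 0 of the 49 genes among them. The 12-array model called 0 genes, where 0.01% of all probes were called higher and 0% lower. At an unadjusted p under 0.05, 2 genes were higher (Sod3 and Txnrd3) and 1 lower (Mgst2) in chitosan brain, where 3.39% of all probes were higher and 3.11% lower. Of the 49 genes, 0 reached 2-fold on the mean log2 scale, where 0.207% of all probes were higher and 0.16% lower (1.76% and 1.36% of those above background). Chitosan and mock arrays did not overlap for 6 genes higher in chitosan brain (Gclm, Gpx5, Gsto1, Gstz1, Prdx2 and Txnrd3) and 4 lower (Gclc, Gstt2, Mgst2 and Mgst3), where 5% and 6.79% of all probes had no overlap. Of all 49 genes 25 were higher and 24 lower, against 13483 and 16439 of all probes, and the median over the 49 was 0.01. In the 14 genes whose mean log2 intensity over the 6 brain arrays passed the limit, 6 were higher and 8 lower, with a median of -0.03, against -0.02 over 2821 probes.

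Prdx2, a cytosolic peroxiredoxin that is abundant in red blood cells, gave 49.6, 49.3 and 289.7 in chitosan brain, against 48.6, 47.8 and 48.9 in mock brain. Chitosan brain array 3 was bright, and the other chitosan arrays lay close above the mock arrays. The log2 difference was 0.88 (SE 0.63, adjusted p = 0.773) by limma on the 6 brain arrays, and 0.03 without chitosan brain array 3. The ratio of the linear means put Prdx2 past 2-fold. The study also reports Prdx2 as higher in chitosan brain than in mock brain by quantitative PCR, which was not examined here. A second Prdx2 probe was at background throughout, at 45.7, 47.9 and 44.0 in chitosan brain and 43.2, 42.9 and 39.6 in mock brain. Of 10 red blood cell markers 9 were at background in both organs. The other, Epb4.9, gave 281, 269 and 392 in chitosan brain and 335, 374 and 288 in mock brain. Its means in chitosan and mock stomach were 50.1 and 48.1. The summed level of the 10 was 679 to 818 in chitosan brain and 717 to 817 in mock brain. Epb4.9 held a large part of this sum, which was highest on chitosan brain array 3, as Epb4.9 itself was. That array also had the highest brain sum of 24 neuron markers (24215, against 13159 to 17032 in mock brain). Its sum of 17 astrocyte markers was the lowest of the brain arrays (3268, against 4130 to 6067 in mock brain). A part of blood or of cell makeup in the Prdx2 level was not tested.

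Gpx5, a glutathione peroxidase known from the epididymis, gave 48.6, 219 and 48.9 in chitosan brain, against 44.2, 46.0 and 47.8 in mock brain. Here array 2 was the bright one and the other 2 chitosan arrays were at background. The log2 difference was 0.81 (SE 0.54, adjusted p = 0.773), and 0.08 without chitosan brain array 2. Both Prdx2 and Gpx5 were at background on all 6 stomach arrays, with Prdx2 at 48.6, 49.3 and 52.8 in chitosan stomach and 48.2, 47.9 and 48.2 in mock stomach.

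Smaller differences were seen in genes that were bright on all brain arrays. Mgst3 gave 278, 269 and 317 in chitosan brain, below 386, 421 and 357 in mock brain, with a difference of -0.43 (SE 0.41, adjusted p = 0.81). Its second probe gave 169, 245 and 78.8 in chitosan brain and 200, 162 and 224 in mock brain, which overlap. The difference on that probe was -0.38 (SE 0.48), and the third Mgst3 probe was at background (-0.005). Gsto1 gave 194, 238 and 212 in chitosan brain, above 165, 166 and 188 in mock brain, with a difference of 0.31 (SE 0.34, adjusted p = 0.838). Gstk1 gave 127, 123 and 133 in chitosan brain and 128, 134 and 128 in mock brain (-0.03, SE 0.24).

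Gstp1 gave 679, 588 and 162 in chitosan brain and 563, 586 and 555 in mock brain, and Gstm1 gave 1537, 1616 and 676 in chitosan brain and 1121, 1220.2 and 1315 in mock brain. In both, chitosan brain array 3 lay below every mock array and the other chitosan arrays above every mock array. This array was the lowest of its group in 10 of the 16 genes, and array 2 was the highest in 10, where 45.5% and 35.6% of the 3520 brain probes above background did the same. Txn2 had another order, with 415, 358 and 629 in chitosan brain, highest on array 3, and 332, 433 and 323 in mock brain. Over the 16 genes the highest array was a median of 1.92 times the lowest in chitosan brain and 1.18 times in mock brain, against 1.56 and 1.32 over the probes above background.

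An interaction term of the 12-array model tested whether chitosan had different effects in stomach and brain. Of the 49 genes, Sod3 was called, with a lower effect in the stomach, and 0 were called with a higher one, where 0.227% of all probes were called lower and 0.0234% higher. The Sod3 effects were -0.37 in the stomach and 0.13 in the brain, where the arrays gave 49.6, 49.3 and 45.0 with chitosan and 42.0, 44.0 and 45.0 without, and the difference was -0.51 (SE 0.07, adjusted p = 0.0187). All of these values were under the background limit, and the call was lost without chitosan stomach array 2, chitosan brain array 1 or mock brain array 1 or 2 (adjusted p of 0.0599 to 0.0746). For Gsto1 the effects were -0.76 in the stomach and 0.31 in the brain, each without overlap of chitosan and mock arrays, and the difference of -1.07 (SE 0.37, adjusted p = 0.396) was not called, although it was without an intensity trend in limma (adjusted p = 0.021).

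The remaining parts of the pathway gave little signal on these probes. For glutathione synthesis, Gss, the synthetase, was above background, at 85.1, 92.0 and 129 in chitosan stomach, 127, 76.6 and 119.8 in mock stomach, 76.6, 66.5 and 56.5 in chitosan brain and 77.8, 74.8 and 74.9 in mock brain. On the second Gss probe chitosan stomach gave 64.2, 53.7 and 52.8, all below 75.8, 67.8 and 75.3 in mock stomach. The log2 difference was -0.36 (SE 0.12, adjusted p = 0.853 by limma), against -0.07 on the first probe. Of the 4 group means of the second probe only that of mock stomach, 73.0, passed the background limit. The subunits of glutamate cysteine ligase, Gclc and Gclm, and the reductase Gsr were at background, with group means of 42.2 to 44.4 for Gclc, 48.0 to 57.0 for Gclm and 40.1 to 42.2 for Gsr. Catalase, the peroxide-splitting enzyme of peroxisomes, gave 39.7, 37.6 and 39.2 in chitosan stomach, 38.5, 39.6 and 40.2 in mock stomach, 38.5, 36.9 and 37.7 in chitosan brain and 39.9, 36.7 and 39.6 in mock brain. A probe at background shows that its signal was not measured above the array's floor and not that the gene is silent, and a fold change of such a probe is pressed towards 0.

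Among the thiol carriers, Glrx5, a mitochondrial glutaredoxin of iron-sulfur cluster assembly, gave 126, 134 and 86.1 in chitosan stomach, 149, 127 and 148 in mock stomach, 121, 170.2 and 111 in chitosan brain and 128, 137 and 142 in mock brain. Its groups overlapped in both organs. Cytosolic Txn1 was at background, with a mean of 41.1 ± 2.53 in chitosan stomach and 51.1 ± 14.1 in mock stomach (SD, n = 3 each), the second raised by mock array 1. Prdx4, the peroxiredoxin of the endoplasmic reticulum, was at background, with 43.8, 47.9 and 45.1 in chitosan stomach, 45.0, 41.8 and 47.3 in mock stomach, 46.6, 44.1 and 46.8 in chitosan brain and 46.4, 48.8 and 48.9 in mock brain. Gstz1, which isomerizes maleylacetoacetate in tyrosine breakdown, had group means of 41.9 to 45.9. The theta class gene Gstt4 gave 42.7, 42.8 and 44.0 in chitosan stomach, all above 38.5, 40.4 and 40.2 in mock stomach, at intensities under the background limit. Of the brain genes without overlap, Txnrd3, a thioredoxin glutathione reductase known from testis, gave 52.2, 53.2 and 71.6 in chitosan brain and 45.2, 44.0 and 45.0 in mock brain, a difference of 0.38 (SE 0.12, adjusted p = 0.765). Chitosan brain array 3 was again the highest, and it alone passed the background limit. The 13 genes not named so far, Glrx, Glrx2, Glrx3, Gpx3, Gpx6, Gpx7, Gstm3, Gstm4, Gstm6, Gsto2, Gstt1, Prdx3 and Txnrd2, had single values of 38.7 to 99.3 and differences of chitosan over mock between -0.14 and 0.13 in the stomach and -0.06 and 0.22 in the brain. The highest of these values belonged to Glrx, the cytosolic glutaredoxin, on chitosan stomach array 1.

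Other genes of the pathway were read from 4 lists. They were NADPH supply (16 genes), NRF2 with its other targets (27), other glutathione enzymes and transport (35) and enzymes that produce hydrogen peroxide (29). By limma on the 6 arrays of an organ, 0 genes of any list were called in either organ. In mock mice the numbers called higher and lower in stomach than in brain were 1 and 0 for NADPH supply, 5 and 1 for the NRF2 list, 3 and 2 for the other glutathione enzymes and 2 and 0 for the peroxide producers, where 3.03% of all probes were called higher and 2.63% lower. The medians of chitosan over mock were 0.00, -0.01, -0.05 and 0.04 in the stomach and -0.02, 0.00, 0.05 and -0.02 in the brain, in the same order of lists.

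Single genes of these lists had larger differences. Akr1b8, an aldose reductase family enzyme, gave 66.5, 45.0 and 42.7 in chitosan stomach, against 114, 102 and 102 in mock stomach, a difference of -1.07 (SE 0.19, adjusted p = 0.278) on 6 arrays and an adjusted p of 0.00463 on 12, where it was called, as was its difference between the organs (-1.11 (SE 0.19, adjusted p = 0.0473)). Hmox1, the inducible heme oxygenase, had a higher mean, with 608, 644 and 398 in chitosan stomach, against 240.0, 369.5 and 358 in mock stomach, and a difference of 0.77 (SE 0.52, adjusted p = 0.853). Chitosan and mock stomach arrays did not overlap for either gene. In the brain, Sepw1, a small selenoprotein with a thiol redox motif, gave 1106, 1209 and 805 with chitosan, against 354, 351 and 357 in mock mice, a difference of 1.53 (SE 0.38, adjusted p = 0.69) on 6 arrays and an adjusted p of 0.229 on 12.

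In the stomach Sepw1 gave 83.5, 88.9 and 140.1 in chitosan mice and 173, 177 and 174 in mock mice (log2 difference -0.79), and the test of the difference between the organs gave -2.32 (SE 0.48, adjusted p = 0.0969). Fth1, the heavy chain of ferritin, gave 1338, 1935 and 362 in chitosan brain, against 2783, 3239 and 3105 in mock brain, a difference of -1.63 (SE 0.56, adjusted p = 0.765) without overlap. Neither Sepw1 nor Fth1 was called in the brain by limma in either model. In the list of glutathione enzymes and transport, Nxn, a thioredoxin-like redox protein, gave 69.0, 47.9 and 48.7 in chitosan stomach and 88.8, 109 and 83.2 in mock stomach, a difference of -0.77 (SE 0.19, adjusted p = 0.578). Of the NADPH suppliers above background, Pgd had the largest difference in the stomach at 0.50 (SE 0.33, adjusted p = 0.853) and Taldo1 in the brain at -0.36 (SE 0.44, adjusted p = 0.856). Of the peroxide producers, Smox, a spermine oxidase, had log2 differences of 0.35 for stomach and -0.35 for brain. Maob, a monoamine oxidase, had 0.33 for stomach and 0.35 for brain. By limma, 0 of these 5 genes were called in either organ.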

How the data were processed

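Single-colour oligonucleotide arrays with Cy5 label were read from 12 samples in 4 groups of 3. The authors deposited normalized intensity values on a linear scale, 1 table per array. By the methods, local background was subtracted, control probes and spots with a negative signal-to-noise ratio were removed, and the rest was normalized with limma; which limma method was used is not stated. All arrays share their highest value. Of 29922 probes, 21020 had 1 gene symbol and 8902 had none. Intensities were taken to log2 and fitted with limma 3.58.1 in R 4.3.3 (lmFit, eBayes with trend), with Benjamini-Hochberg adjustment over all probes and a threshold of 0.05. Chitosan was compared with mock on the 6 arrays of an organ. Organ differences and the interaction came from group means over all 12 arrays. A gene had no overlap when every array of a group lay on 1 side of every array of the other. The models were tested on simulated data.

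Member genes and gene lists were chosen with earlier results of these data known. Genes named by rule were Prdx2 and Gpx5, which the study names, those at 2-fold or called for chitosan or the interaction, the brightest of each family per organ, and the 5 with the largest organ difference each way in mock mice. In other lists they were up to 3 above background per organ with the largest chitosan difference. Gsta3, Gclc, Gclm, Gsr, Gstt2, Mgst2, Txn1, Txnrd3 and the 13 listed together were named after their values were seen. Alternatives covered the model, trend, probe choice, background limit, replicate block and each array left out. The 3 arrays of a group came from independent mice by the methods, and their number limits the precision.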

Additional observations from a re-analysis of the deposited data

Results flagged for a closer look

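Sod3 was singled out because its chitosan effect differed between the organs by a test of the difference itself. The difference of the log2 effects, stomach minus brain, was -0.51, with the chitosan stomach arrays all below the mock stomach arrays, and every intensity lay under the background limit.

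Gsto1 was singled out because all chitosan arrays lay below all mock arrays in the stomach and above all mock arrays in the brain. Its difference of log2 effects was -1.07 and missed the threshold of the limma test (adjusted p = 0.396).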

How the results depend on the processing

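A model of all 12 arrays called 1 member gene in the stomach (Sod3). The methods' t-test without adjustment called 5 stomach genes and 5 brain genes, and it passed 1792 and 1798 of the 29922 probes. After Benjamini-Hochberg adjustment it passed 3 probes in the stomach, all lower with chitosan, and 0 in the brain, with 0 member genes in either organ. Stomach over brain gave 5 to 9 called genes in mock mice with 1 array left out, 1 in chitosan mice with only the 6 arrays of these mice, and 1 to 5 with 1 array left out. Without chitosan stomach array 2 or chitosan brain array 1 this number was 1, and without chitosan stomach array 3 it was 5. The interaction gave 2 without the trend (Sod3 and Gsto1, the second at an adjusted p of 0.021), 0 with only the brighter probes, 0 with a replicate block and 0 to 1 with 1 array left out. At 2-fold, the stomach had 0 genes with the mean of all probes, 0 with the dimmest probe and 3 to 4 with 1 array left out, and the brain had 2 by the ratio of linear means and 0 to 2 with 1 array left out. The stomach median, -0.37 over genes above the limit in either group, was -0.55 with a limit of 3 times the lowest intensity and -0.55 by the mean over all 6 arrays, which was chosen after seeing the data. With 1 array left out this median lay between -0.49 and -0.25. With the dimmest probe Gstm2 (0.26), Mgst3 (0.0278) and Prdx5 (0.0519) reversed; the probes differ, and the cause was not tested. Whether replicate numbers pair the arrays could not be decided. The deviations of 3 arrays from their group mean sum to 0, which constrains their correlations. The deviations of same-numbered chitosan and mock arrays of an organ correlated at -0.621 to 0.675 and those of others at -0.803 to 0.783. Between the organs, same-numbered arrays correlated at 0.213, 0.536 and 0.702 in chitosan mice and at -0.104, -0.401 and -0.354 in mock mice. Arrays of different number correlated between the organs at -0.721 to 0.69 over both treatments. The replicate block gave 0 calls for chitosan in each organ, 4 for the organs in chitosan mice and 7 in mock mice, and lost Gstk1 (adjusted p = 0.0664) and the interaction of Sod3 (0.109), as it did all 75 probes called for the interaction without it. Of the summary values, most of them counts of genes, 121 stayed equal or close to the main value, 12 were weaker, 5 stronger and 8 moved. Of the single-gene values, 347 kept their direction and their side of the threshold, 32 lost a call, 5 gained one and 3 reversed. Signal limits what could be seen, as 28 of the 49 genes were at background in both organs.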
